A study of Mus musculus with 6 samples.

Results

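Replication-dependent histone genes were followed through the cells of 6 mouse tumors. They were taken as all genes of the matrix whose symbol begins with Hist1h, Hist2h, Hist3h or Hist4 and that had at least 50 unique molecular identifiers (UMIs, each standing for 1 captured RNA molecule) over all cells. The rule kept 52 of 67 such symbols, out of 32285 genes. These 52 genes held 86418 UMIs, and the 15 symbols left out held 237. Just inside the limit were Hist1h2bf with 50 UMIs and Hist1h2ad with 54, and just outside was Hist1h2bp with 40. By class, 5 members encode linker histone H1, 12 encode H2A, 14 encode H2B, 11 encode H3 and 10 encode H4.

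The tumors grew from MOC-2, a mouse head and neck squamous cell carcinoma (HNSCC) line, placed under the skin of male mice. The 3 treated mice had received an experimental agent and the 3 vehicle mice the diluent alone, injected into the tumor 24 hours earlier. The treatment text, the same for every sample, names copper(II) diethyldithiocarbamate, 2-C1-IB-MECA, 2'3'-c-di-AM(PS)2 as its Rp,Rp form, 5'ppp-dsRNA/Lyovec, R848, galunisertib, epcadostat, Nw-Hydroxy-nor-L-arginine, L-NMMA, clodronate and 4-1BB ligand, in DMSO or sterile water, and it does not say which of them the treated tumors received. Living cells were sorted, tagged by tumor, pooled and sequenced from the 3' end of their RNA. No label ties a cell to a tumor, so treated and vehicle tumors were not compared: the matrix was read as 1 pooled sample, and no p-value was computed.

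Replication-dependent histone genes supply the proteins that package newly copied DNA. Their mRNAs are made mainly while DNA is being replicated. They end in a short stem-loop bound by the protein Slbp in place of a poly(A) tail, and they are degraded when replication stops. Some of these genes can also give longer, polyadenylated transcripts, for example in cells that have left the cycle. The library kit primes on poly(A), so a UMI count of such a gene is a count of what that priming captured and not of all its mRNA.

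The matrix held 14818 cells in 6 barcode sets, told apart by the barcode suffix, with 901 to 4077 cells each and no barcode shared between sets. No label assigns a set to a tumor, so sets are shown as a lowest, median and highest value. Of these cells, 13768 passed the limits on genes and mitochondrial counts, and the 12023 with at least 2000 UMIs were given a place in the cell cycle. Levels are the UMIs of a gene divided by all gene UMIs of a group and scaled to a total of 1000000 (CPM). Intervals are exact 95% intervals and cover counting error only.

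Cells were gated by marker genes. Host gates needed at least 3 markers of a list and at most 1 UMI of Xist, the long noncoding RNA of the inactive X chromosome. In the T cell gate the T cell markers summed to 4102 CPM, in the NK cell gate the NK markers to 7912 CPM, and in the macrophage or monocyte gate the macrophage markers to 8741 CPM. The same lists summed to 2.85, 170 and 13.7 CPM in all Xist-positive cells. The gates were not free of other lists, since the T cell gate also held 1140 CPM of the NK list and 856 CPM of the macrophage list, whose part in its histone levels was not tested. The Xist-positive cells carry no cell type name here. They had at least 1 UMI of Xist, none of Ddx3y, Eif2s3y, Kdm5d or Uty, which lie on the Y chromosome, and none of the leukocyte gene Ptprc. The planned gate left out cells with keratin or fibroblast markers, and most Xist-positive cells carried them. These, the fibroblast-list ones with over 1 UMI of Xist, were joined to it, after the data were seen, as all Xist-positive cells, where the fibroblast list summed to 2974 CPM and the keratin list to 1046 CPM. Another 779 cells with a cycle place met the fibroblast list but had UMIs neither of the Y-linked genes nor over the limit of Xist, which goes against a label of male host cells, and they were kept apart.

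Each cell was placed by the summed UMIs of 38 S phase genes, which act in DNA replication, and of 42 G2/M genes, which act in mitosis. No member is on either list. Cells over neither limit are called non-cycling, and the others S only, S and G2/M, or G2/M only. All Xist-positive cells held 4774 non-cycling, 504 S only, 1183 S and G2/M and 378 G2/M only cells. Depth moved with these groups, as the median UMIs per cell were 9553, 13239, 17658 and 14508 in that order.

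The 52 genes lie in 4 places of the mouse genome (mm10, GENCODE M21). On chromosome 13 are 41 members, 14 of them in chr13:21716422-22043676 and 27 in chr13:23531050-23764406. Chromosome 3 holds 8 members in chr3:96220361-96270132, chromosome 11 holds 2 in chr11:58948920-58956830, and chromosome 6 holds 1, Hist4h4, in chr6:136801553-136804415. In the annotated transcripts, a 3' stem-loop was sought on the transcript strand as GG, any 2 bases, CT, any 4 bases, AG, any 2 bases and CC, and 39 of 52 members held it. The stem-loops below belong to members that the results turn on, and are shown because this short element sets these mRNAs apart from other mRNAs. Capitals mark the stem and loop, and T stands for U in the RNA.
Hist1h2ae: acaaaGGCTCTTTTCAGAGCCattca
Hist1h2ap: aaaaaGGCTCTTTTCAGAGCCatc
Hist1h1e: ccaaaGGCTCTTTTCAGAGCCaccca
Hist1h1c: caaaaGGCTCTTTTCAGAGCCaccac
Hist3h2a: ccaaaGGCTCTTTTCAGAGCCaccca
Hist1h3c: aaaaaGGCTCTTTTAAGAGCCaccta
Hist1h4i: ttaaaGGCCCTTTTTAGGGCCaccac
Hist1h4d: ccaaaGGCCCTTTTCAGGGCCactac
The core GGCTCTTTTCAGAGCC stood in 22 of the 39 members, none of them an H4 gene. The core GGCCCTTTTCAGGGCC stood in 5, all of them H4 genes, which had 10 stem-loops in all. The annotated transcript of Hist1h2ap stops 3 bases after the core, close to the end that processing of these mRNAs gives. Those of Hist1h2ae, Hist1h4i, Hist1h4d, Hist1h1c, Hist1h1e and Hist3h2a run on for 151, 330, 770, 840, 1153 and 1643 bases. No stem-loop was found in the annotated transcripts of Hist1h1b, at chr13:21779883-21780625 on the minus strand, or of Hist1h2bc, at chr13:23684199-23692908 on the plus strand, whose transcript is spliced. An annotated transcript can stop short, so a stem-loop missing from it does not show that the mRNA lacks one.

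The 3' ends of these genes resemble each other, and how reads that fit several copies were counted is not given in the sources used here. Among the last 300 bases of their transcripts, 21 members share no stretch of 90 bases with another annotated transcript and 21 share at least 50% of such stretches. Hist1h2ap, Hist2h2aa1, Hist2h3c1, Hist1h3e, Hist1h3f and Hist1h1e, 6 in all, share all of theirs, so their own counts are uncertain. Hist1h3e and Hist1h3f share theirs with each other, and Hist1h1e with Hist1h2be, which it overlaps on the same strand and which is uncertain too. Levels were not divided by transcript length, so the text compares 1 gene between groups and not genes by their level.

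The promoters of 46 members were found in RefSeq (GRCm38.p6), each running from 250 bases before the start to 50 after it. The letters TATAAA, on either strand, stood in 56.5% of them and in 14.2% of the 27025 promoters of the table. CCAAT stood in 87.0% of the members against 37.9% of all, and ATTTGCAT, the octamer known to be bound by the transcription factor Oct-1 (Pou2f1), in 21.7% against 1.8%. All H1, H2A, H2B and H3 promoters found held CCAAT, against 3 of 9 H4 promoters. The octamer stood in 5 of 11 H2A and 5 of 12 H2B promoters and in none of the other classes. Of the printed pair, the Hist1h2ae promoter at chr13:23571171-23571470 (minus strand) holds all 3 motifs and the Hist1h1b promoter at chr13:21780576-21780875 (minus strand) the first and second, in capitals. A match is a description of letters and not a bound site. Hist1h2ae starts 176 bases from Hist1h2bg on the opposite strand, so its window runs into that gene. The TATAAA and ATTTGCAT matches in the Hist1h2ae promoter lie on the strand of Hist1h2bg, and which gene they serve was not tested. Where the windows of such a pair overlap, the same letters can be counted for both genes.
Hist1h2ae promoter: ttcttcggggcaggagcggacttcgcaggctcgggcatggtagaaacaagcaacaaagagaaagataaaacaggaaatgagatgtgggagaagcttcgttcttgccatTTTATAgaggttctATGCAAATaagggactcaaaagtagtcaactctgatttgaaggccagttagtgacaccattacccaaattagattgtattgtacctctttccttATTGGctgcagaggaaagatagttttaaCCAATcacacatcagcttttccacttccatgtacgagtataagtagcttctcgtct
Hist1h1b promoter: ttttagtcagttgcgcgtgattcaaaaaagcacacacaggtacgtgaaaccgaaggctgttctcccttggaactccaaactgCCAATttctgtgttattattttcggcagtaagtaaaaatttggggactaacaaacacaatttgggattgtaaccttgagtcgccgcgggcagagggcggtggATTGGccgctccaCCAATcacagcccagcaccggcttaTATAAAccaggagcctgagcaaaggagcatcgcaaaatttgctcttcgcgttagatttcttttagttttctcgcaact

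In all Xist-positive cells the histone genes were far higher where the S and G2/M lists were both high. Their summed level was 307 CPM in non-cycling cells, 298 CPM in S only cells, 1467 CPM in S and G2/M cells and 563 CPM in G2/M only cells. S and G2/M cells stood 4.77-fold above non-cycling cells (4.68 to 4.87), and G2/M only cells 1.83-fold (1.77 to 1.90). S only cells did not stand above non-cycling cells, with a fold of 0.971 (0.927 to 1.02). With the cycle lists thinned to 2000 UMIs in every cell, S and G2/M cells stood 3.63-fold above non-cycling cells, and counted per cell with no scaling to depth 8.30-fold.

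Among groups of at least 20 cells, the sum was highest in S and G2/M cells in all 6 barcode sets. The summed level had a lowest, median and highest set value of 274, 286 and 360 CPM in non-cycling cells. It was 165, 266 and 419 CPM in S only cells and 961, 1485 and 1700 CPM in S and G2/M cells. In G2/M only cells, 5 sets had at least 20 cells and lay at 446, 552 and 631 CPM. The ranges of S and G2/M cells and of non-cycling cells did not overlap, while those of S only cells and non-cycling cells did. Barcode set 3, with 41 S and G2/M cells, gave the lowest S and G2/M value.

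**Figure D1:**
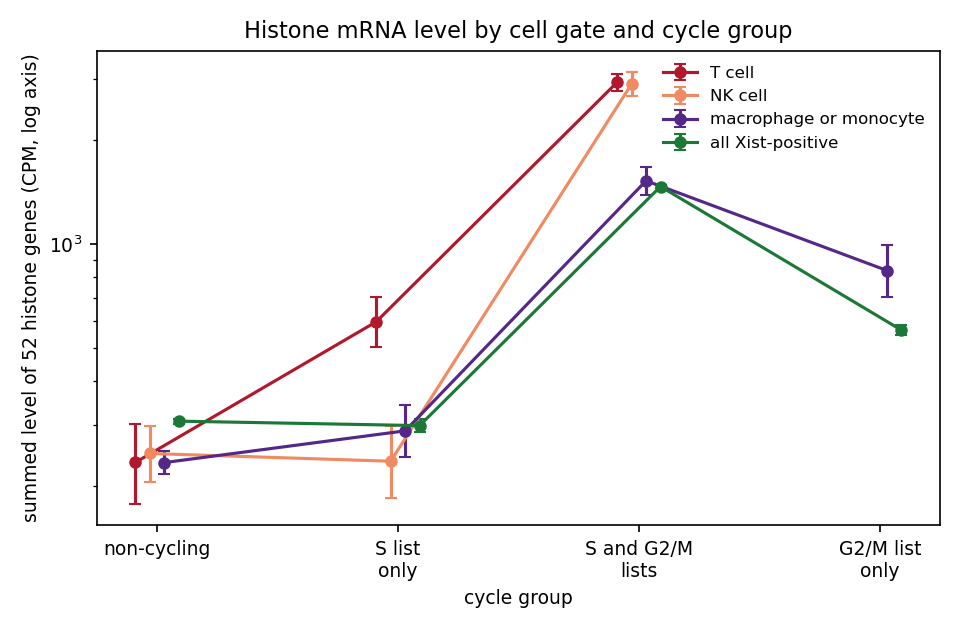
Summed level of the 52 histone genes (CPM, log axis) by cycle group in 4 gates, for groups of at least 20 cells; points are pooled values and bars exact 95% Poisson intervals. All 4 gates are highest where both cycle lists are high, T cells at 2938 CPM and all Xist-positive cells at 1467 CPM.

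**Figure D2:**
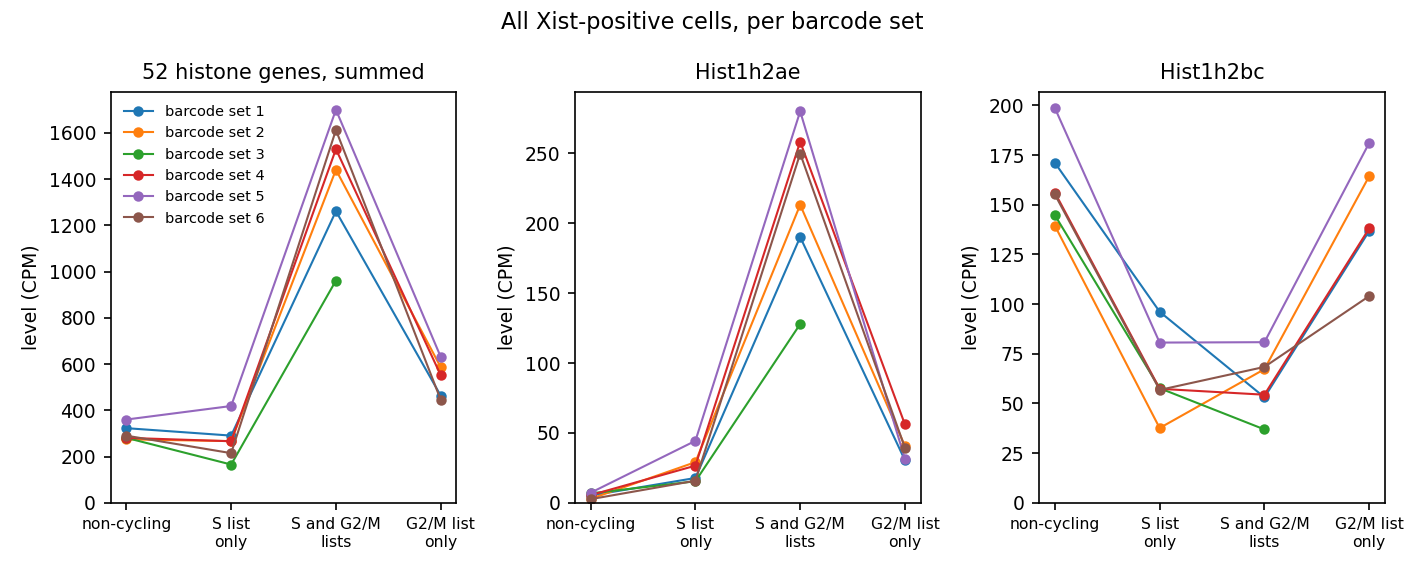
Level (CPM) by cycle group in all Xist-positive cells, 1 line per barcode set (unmapped sets, groups of at least 20 cells), for the 52 genes summed, Hist1h2ae and Hist1h2bc. The sum and Hist1h2ae peak in S and G2/M cells in every set, and Hist1h2bc is lower there than in non-cycling cells in every set.

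Most members were higher where both lists were high. At 2-fold or more, 45 of 52 members were higher in S and G2/M cells than in non-cycling cells, against 6.33% of the 14513 genes tested, and 2 were at 0.5-fold or less, Hist1h2bc and Hist2h3c1, against 11.1%. The median fold was 15.0 over members and 0.911 over all genes. Members and all genes tested met the same limit on UMIs over all cells. Those cells include the S and G2/M cells, so a member hardly seen in non-cycling cells could pass through cycling cells. Among all Xist-positive cells, Hist1h2af had 164 UMIs in S and G2/M cells and 0 in non-cycling cells. The part of this limit in the 45 members and in the median of 15.0 was not tested. In all 6 barcode sets 38 members were higher in S and G2/M cells and 1, Hist1h2bc, was lower. In G2/M only cells 39 members reached 2-fold, against 5.02% of genes, and 1 was at 0.5-fold or less, against 8.22%. In S only cells 29 reached 2-fold, against 5.90%, and 3 were at 0.5-fold or less, against 6.12%, at a median of 2.54. Fewer members kept 1 direction over the 6 barcode sets in these groups, which also held fewer cells, and the part of depth was not tested. In G2/M only cells 13 were higher and 1 lower in all 6, though barcode set 3 had only 16 of these cells. In S only cells 4 were higher and 4 lower. Shares of all genes that kept 1 direction are not given for these counts or for the 38.

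The folds of the linker histones ranged from 222 for Hist1h1b to 1.05 for Hist1h1c. Hist1h1b had a lowest, median and highest set value of 129, 179 and 211 CPM in S and G2/M cells, against 0.00, 0.68 and 1.60 CPM in non-cycling cells. The ranges lay far apart, and the pooled levels of 187 and 0.845 CPM gave a fold of 222 (164 to 307), or 385 counted per cell with no scaling to depth and 160 with thinned cycle lists. Hist1h1e lay at 81.8, 117 and 139 CPM in S and G2/M cells, against 3.36, 5.10 and 8.11 CPM in non-cycling cells. Its fold was 21.2 (18.8 to 24.0), from counts that are uncertain. Hist1h1a and Hist1h1d, which had fewer UMIs, stood at 51.5-fold (34.2 to 81.1) and 16.2-fold (12.4 to 21.4). Hist1h1c, a linker histone that resting cells also make, behaved differently. It lay at 23.7, 46.3 and 61.3 CPM in S and G2/M cells, against 37.4, 41.2 and 57.6 CPM in non-cycling cells. These ranges overlapped and its fold was 1.05 (0.977 to 1.13). In S only cells Hist1h1c lay at 12.6, 15.4 and 24.6 CPM, below every non-cycling set, with a fold of 0.397 (0.329 to 0.475).

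Of the core histone H2A genes, 11 of 12 reached 2-fold in S and G2/M cells, at a class median of 45.2-fold. Hist1h2ae lay at 128, 232 and 280 CPM across the sets in S and G2/M cells, against 2.57, 5.32 and 7.17 CPM in non-cycling cells. The groups did not overlap and the fold was 45.1 (39.8 to 51.2). Hist1h2ap, whose counts are uncertain, gave 116, 195 and 214 CPM against 2.36, 4.55 and 5.27 CPM, and a fold of 45.3 (39.6 to 52.1). Hist1h2af had 164 UMIs in S and G2/M cells and 0 in non-cycling cells, which gives 127-fold when the non-cycling group is set to 3 counts. This value depends on that setting and is not a bound. Hist1h2af also shares 51.2% of the 90-base stretches in its last 300 bases with other transcripts. The member that did not reach 2-fold was Hist3h2a, which stands apart from the main clusters on chromosome 11. It lay at 9.23, 19.5 and 23.2 CPM in S and G2/M cells and at 14.1, 20.7 and 22.5 CPM in non-cycling cells, with a fold of 0.952 (0.845 to 1.07). In S only cells its fold was 0.574 (0.449 to 0.724).

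The H2B genes held the exception with most UMIs of all members. Hist1h2bc had 17128 UMIs in the matrix, and its level across the sets was 36.9, 60.8 and 80.8 CPM in S and G2/M cells, against 139, 156 and 199 CPM in non-cycling cells. All 6 sets were lower in S and G2/M cells and the ranges did not overlap. The fold was 0.371 (0.350 to 0.393) in S and G2/M cells, 0.408 (0.371 to 0.447) in S only cells and 0.881 (0.821 to 0.945) in G2/M only cells. Counted per cell with no scaling to depth, the S and G2/M fold was 0.644. Without Hist1h2bc, the summed level of the other members stood 9.93-fold higher in S and G2/M cells than in non-cycling cells, and 1.63-fold higher in S only cells. Of the 14 H2B genes, 12 reached 2-fold in S and G2/M cells, among them Hist1h2bj at 24.9-fold (17.1 to 37.4) and Hist1h2bb at 26.7-fold (16.7 to 45.1). Hist1h2be, whose overlap with Hist1h1e leaves its counts uncertain, stood at 4.13-fold (3.27 to 5.25).

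Of the H3 genes, 9 of 11 reached 2-fold in S and G2/M cells. Hist1h3c lay at 56.1, 62.5 and 69.9 CPM across the sets in S and G2/M cells, against 0.416, 0.521 and 1.32 CPM in non-cycling cells. This was among the widest gaps of the core histones, at 84.1-fold (61.2 to 119). Hist1h3f stood at 37.4-fold (25.2 to 58.0) and Hist1h3e at 19.9-fold (14.9 to 27.2), but their shared 3' ends leave the split between them uncertain. The H3 genes of chromosome 3 differed from these: Hist2h3c1 stood at 0.361-fold (0.237 to 0.532) and Hist2h3c2 at 0.713-fold (0.474 to 1.05), while Hist2h3b stood at 20.2-fold (9.25 to 52.5). Hist2h3c1, whose counts are uncertain, had 30 UMIs in S and G2/M cells, against 193 in non-cycling cells.

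The H4 genes all lay above 1, with 9 of 10 at 2-fold or more. Hist1h4d lay at 55.4, 70.8 and 81.6 CPM across the sets in S and G2/M cells, against 3.50, 4.38 and 4.79 CPM in non-cycling cells, with a fold of 17.8 (15.5 to 20.7). Hist1h4i lay at 92.3, 115 and 242 CPM, against 20.5, 23.0 and 33.6 CPM. Its fold was 5.29 (4.95 to 5.65), and it was still 3.49-fold (3.15 to 3.87) in G2/M only cells. Hist4h4, the gene on chromosome 6, stood at 1.81-fold (1.23 to 2.67).

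**Figure D3:**
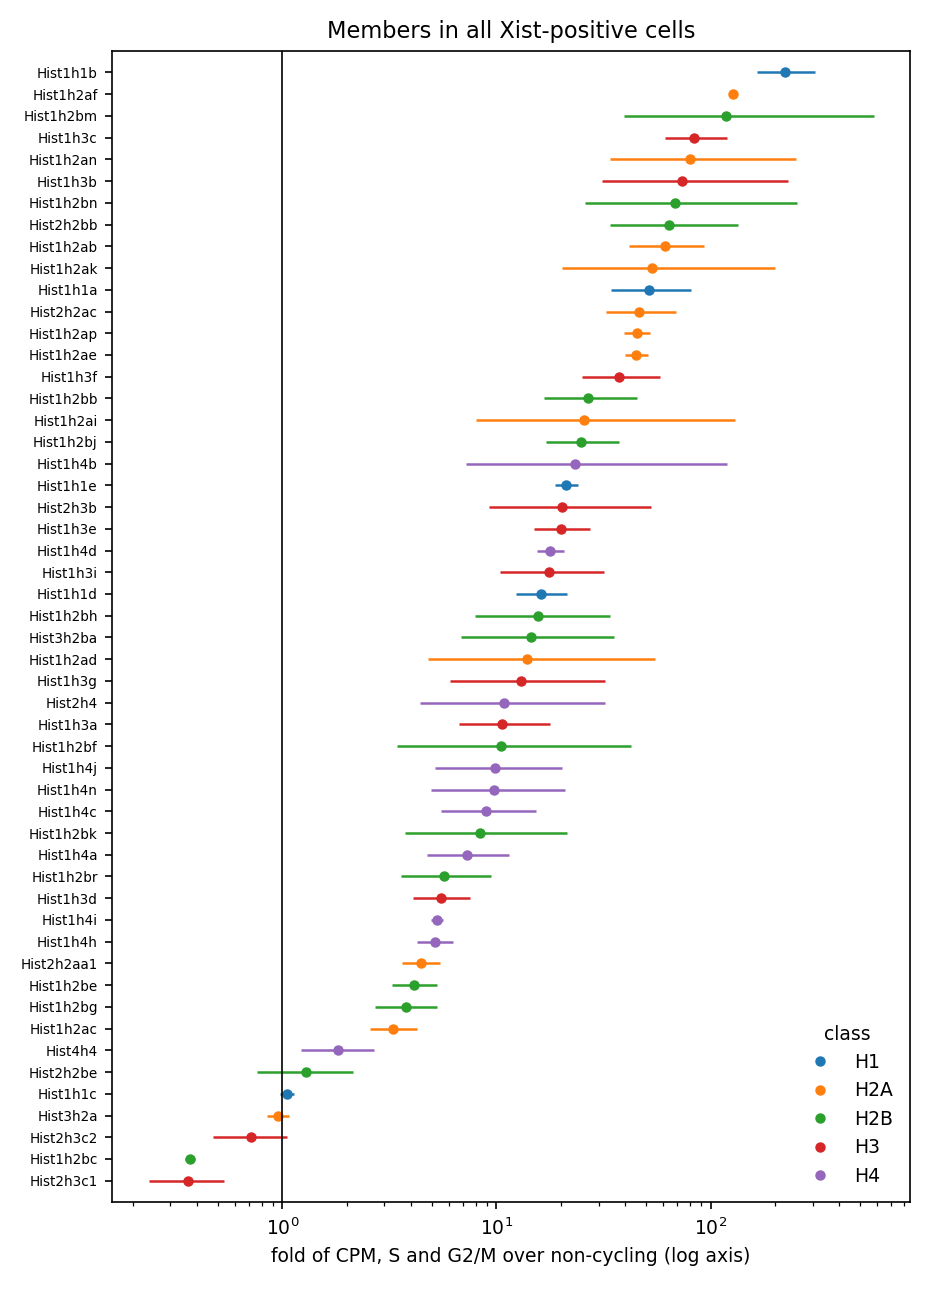
Fold of CPM, S and G2/M over non-cycling cells, for each of the 52 members in all Xist-positive cells (log axis), coloured by histone class. Points are pooled folds and bars exact 95% intervals. Hist1h2af, with 0 UMIs in non-cycling cells, is shown without a bar. Its point depends on the count set for that group and is not a bound. The members spread from 0.361 for Hist2h3c1 to 222 for Hist1h1b.

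The make-up of the histone UMIs followed these differences. In S and G2/M cells H2A gave 37.6% of histone UMIs and H2B 9.28%, against 11.4% and 56.1% in non-cycling cells. H1 gave 27.5% in S and G2/M cells and 17.5% in non-cycling cells, H3 gave 9.24% and 3.47%, and H4 gave 16.4% and 11.5%. In non-cycling cells Hist1h2bc alone, at 166 CPM, made up most of the H2B level of 172 CPM.

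The fold was set beside features of the genes that the rule for members did not use. These features can still bear on which genes reached 50 UMIs, since the library kit primes on poly(A) and the limit counts cycling cells. The part of that limit in the contrasts below was not tested. Among 18 members whose stem-loop lies within 120 bases of an annotated transcript end, all 18 reached 2-fold in S and G2/M cells, with a median of 18.6-fold. Among 21 whose transcripts run further, 16 reached it and 1 was at 0.5-fold or less, with a median of 8.96. Among 13 with no stem-loop in the annotation, 11 reached it and 1, Hist1h2bc, was at 0.5-fold or less, with a median of 51.5. Many of these 13 have short annotated transcripts, such as 393 bases for Hist1h2an and 743 for Hist1h1b, which may stop before a stem-loop. They are not shown to be genes whose mRNA lacks one. A poly(A) signal (AATAAA or ATTAAA) stood within the last 50 bases of a transcript of 14 members. Of these 14, 9 reached 2-fold and the median was 5.22, against 36 of 38 and 20.7 in the others. By place, 39 of 41 members of chromosome 13 reached 2-fold, against 5 of 8 on chromosome 3.

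Histone genes often sit head to head and share the space between their starts. In 7 pairs of members the starts lay 176 to 660 bases apart on opposite strands, 6 of them H2A and H2B pairs. In 5 of these 6 the H2A gene had the larger S and G2/M fold. Hist2h2ac stood at 46.4-fold beside Hist2h2be at 1.29-fold, 239 bases away, and Hist1h2ae at 45.1-fold beside Hist1h2bg at 3.77-fold, 176 bases away. Hist1h2ac stood at 3.30-fold beside Hist1h2bc at 0.371-fold, 251 bases away. The pair in which H2B was larger was Hist1h2ak at 53.4-fold and Hist1h2bn at 67.9-fold. Near-identical copies make the counts of single genes in such pairs uncertain.

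To see the order within the cycle, the 2065 cycling Xist-positive cells were ranked by the share of S list UMIs among the UMIs of both lists and cut into 5 bins of 413 cells. From the lowest share, at the G2/M end, to the highest, the summed histone level was 667, 1299, 1748, 1107 and 393 CPM. The peak fell in the middle bin, where both lists were high, in 5 of 6 barcode sets, and the lowest value in the bin with the highest S share in all 6. No limit of 20 cells was applied to these bins. Barcode set 3 had 7, 18, 16, 18 and 20 cells in them, and barcode set 6 had 19 in the middle bin. Over the same bins Hist1h2ae gave 67.5, 185, 291, 178 and 47.1 CPM, and Hist1h1b 31.2, 121, 240, 164 and 42.5 CPM. Both follow the sum. Hist1h4i peaked in the same bin less sharply, at 106, 138, 142, 90.6 and 46.1 CPM. Hist1h2bc gave 111, 87.1, 60.0, 58.9 and 67.5 CPM, and was highest at the G2/M end when pooled. By barcode set it was highest there in 4 of 6, in the second bin in 1 and at the S end in 1. Hist1h1c gave 39.8, 58.4, 53.5, 35.3 and 17.1 CPM.

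**Figure D4:**
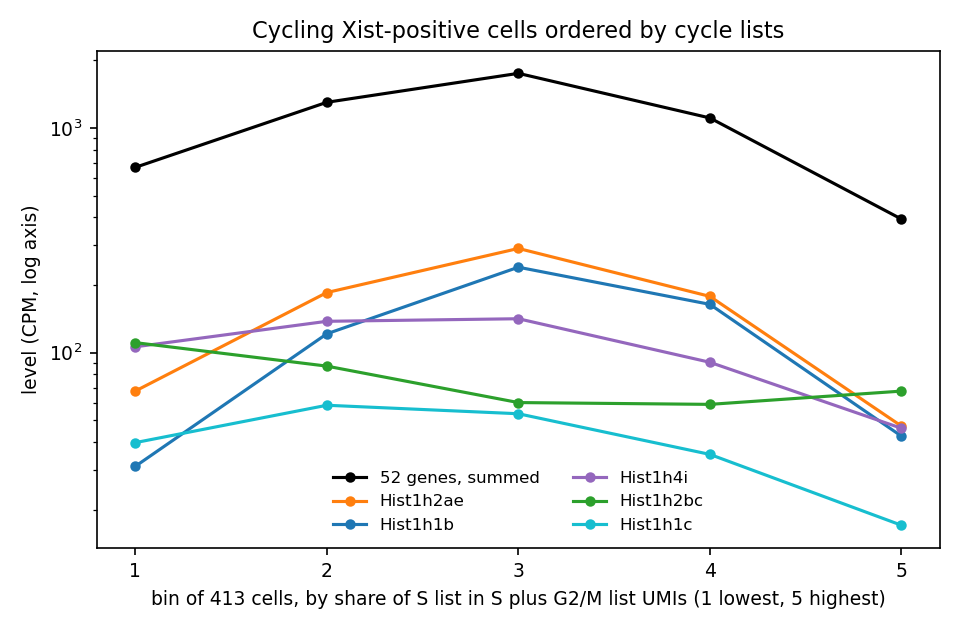
Level (CPM, log axis) in 5 bins of 413 cycling Xist-positive cells, ordered by the share of S list UMIs among S and G2/M list UMIs (1 lowest, 5 highest), with 1 pooled value per bin and gene. The sum, Hist1h2ae, Hist1h1b and Hist1h4i peak in bin 3, at 1748 CPM for the sum, while Hist1h2bc is highest in bin 1 at 111 CPM.

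The planned comparison, S only over non-cycling cells in the narrower Xist-positive non-immune gate, gave a small difference in the sum. The summed level was 372 CPM in 123 S only cells and 337 CPM in 1120 non-cycling cells, a fold of 1.11 (1.00 to 1.22). By member, 24 of 52 reached 2-fold, against 8.42% of genes, and 1, Hist1h2bc, was at 0.5-fold or less, against 4.84%. Of these 24, 11 rested on fewer than 4 UMIs in S only cells, and 21 members had at most 3 UMIs in both groups. Hist1h1b stood at 29.1-fold (12.4 to 78.9), Hist1h2ae at 8.10-fold (5.49 to 12.0), Hist1h2ap at 4.74-fold (2.89 to 7.68) and Hist1h4i at 2.65-fold (2.07 to 3.38). Against them stood Hist1h2bc at 0.419-fold (0.337 to 0.516), Hist3h2a at 0.517-fold (0.262 to 0.926) and Hist1h1c at 0.544-fold (0.372 to 0.771). Without Hist1h2bc, the sum of the other members was 1.88-fold higher in S only cells. The sum's direction depended on the cells taken: leaving out barcode set 5 gave 0.872, and cycle limits 1.5 times higher gave 2.10. The count of 24 members was 36 with cycle limits 1.5 times higher, 10 with 2 markers per gate and 3 with thinned cycle lists.

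In host gates too, among groups of at least 20 cells, the histone genes were highest where both cycle lists were high. In the macrophage or monocyte gate the summed level was 1524 CPM in 48 S and G2/M cells and 233 CPM in 828 non-cycling cells, a fold of 6.54 (5.79 to 7.38). In the T cell gate it was 2938 CPM in 61 S and G2/M cells and 233 CPM in 75 non-cycling cells, a fold of 12.6 (9.68 to 16.7). The NK cell gate gave 2905 CPM in 30 S and G2/M cells and 248 CPM in 113 non-cycling cells, a fold of 11.7 (9.60 to 14.4). In each of these 3 gates the S and G2/M group lay above the non-cycling group by more than counting error. No barcode set held 20 S and G2/M cells of any of these gates, so these levels are pooled only and their spread over sets is not shown. Over the alternative settings the macrophage fold ran from 4.32 to 11.5 and the T cell fold from 7.30 to 25.2. The 6 G2/M only cells of the T cell gate, under that size, pooled to 4513 CPM from 77 UMIs, above its S and G2/M cells. S only cells of the T cell gate lay at 596 CPM, 2.55-fold (1.87 to 3.52) above its non-cycling cells, or 1.26-fold with thinned cycle lists. Those of the macrophage or monocyte gate lay at 288 CPM, 1.24-fold (1.02 to 1.49), and this fold was 0.977 without barcode set 4 and 2.46 with cycle limits 1.5 times higher. Those of the NK cell gate, at 235 CPM, stood at 0.950-fold (0.696 to 1.29). By member, 37 of 52 reached 2-fold in S and G2/M macrophages (20.0% of genes), 17 in T cells (6.48%) and 31 in NK cells (10.3%). Of these, 19 of the 37 in macrophages and 4 of the 31 in NK cells rested on fewer than 4 UMIs in S and G2/M cells, and none of the 17 in T cells. At most 3 UMIs in both groups were held by 26 members in macrophages, 20 in T cells and 23 in NK cells.

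The lower Hist1h2bc level of cycling Xist-positive cells was not resolved in host cells. Hist1h2bc stood at 46.9 CPM in S and G2/M T cells and 28.2 CPM in non-cycling T cells, from 19 and 7 UMIs, a fold of 1.67 (0.671 to 4.69). In NK cells the fold was 1.10 (0.477 to 2.38) and in macrophages 0.884 (0.460 to 1.56). These intervals are wide and include 1, while all 3 lie above the 0.371 of all Xist-positive cells. Whether the gates differ in this fold was not tested over samples, since no cell is tied to a tumor.

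Among S and G2/M cells, T cells held a larger share of histone UMIs than Xist-positive cells. T cells stood 2.00-fold (1.89 to 2.12) and NK cells 1.98-fold (1.83 to 2.14) above all Xist-positive cells, while macrophages stood at 1.04-fold (0.945 to 1.14). These are shares of a cell's captured RNA. No barcode set held 20 S and G2/M cells of the T cell, NK cell or macrophage gate, so these folds are not shown by set. Counted per cell with no scaling, S and G2/M T cells held 19.5 histone UMIs and S and G2/M Xist-positive cells 27.2, a ratio of 0.718, with median depths of 5949 and 17658 UMIs per cell. By member, 26 of 52 reached 2-fold in T cells over all Xist-positive cells (16.3% of genes), 5 of these on fewer than 4 UMIs. In NK cells 27 did (16.8%), 8 of these on fewer than 4 UMIs. In macrophages 8 reached it, which is close to the share of all genes (15.7%), and 6 of these rested on fewer than 4 UMIs.

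In S and G2/M T cells Hist1h2ap, whose counts are uncertain, stood at 519 CPM, against 198 CPM in all Xist-positive cells, a fold of 2.63 (2.27 to 3.02). Hist1h2ae stood at 499 CPM against 233 CPM, a fold of 2.14 (1.85 to 2.46). Hist1h1b stood at 481 CPM against 187 CPM, a fold of 2.57 (2.21 to 2.97), and Hist1h3c at 183 CPM against 64.4 CPM, a fold of 2.84 (2.21 to 3.58). These 4 were all higher in T cells by more than counting error. Hist1h4i went the other way, with 86.4 CPM in T cells against 132 CPM in all Xist-positive cells, a fold of 0.654 (0.455 to 0.912). In NK cells Hist1h3c stood 3.67-fold (2.73 to 4.84) above all Xist-positive cells and Hist1h4i at 1.03-fold (0.695 to 1.48). In macrophages Hist1h4i stood at 0.508-fold (0.310 to 0.786) and Hist1h1c at 1.82-fold (1.19 to 2.69).

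Outside the cycle the gates differed in the pooled summed level and in pooled levels of single members. The summed level of non-cycling cells was 498 CPM in 150 cells of the osteoclast gate, 280 CPM in 189 Y-positive fibroblasts, 248 CPM in NK cells, 233 CPM in T cells, 233 CPM in macrophages and 307 CPM in all Xist-positive cells. The osteoclast gate stood 1.62-fold (1.502 to 1.746) above all Xist-positive cells, and macrophages at 0.759-fold (0.702 to 0.819). With 1 barcode set left out, the osteoclast fold ran from 1.36 to 1.71. By set, among groups of at least 20 cells, macrophages ran from 191 to 405 CPM and all Xist-positive cells from 274 to 360 CPM, which overlap. Y-positive fibroblasts ran from 183 to 389 CPM. The osteoclast gate had 2 such sets, at 455 and 603 CPM, and the T cell gate 1, at 174 CPM. Against the narrower Xist-positive gate, as planned, T cells stood at 0.693-fold (0.525 to 0.898), at 1.24-fold with cycle limits 1.5 times higher and at 0.281-fold per cell. In the osteoclast gate the osteoclast markers summed to 27617 CPM, while the neutrophil list, which shares Mmp9 with it, summed to 8254 CPM.

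Hist1h2bc had the highest non-cycling level in the osteoclast gate, at 202 CPM, followed by all Xist-positive cells at 166 CPM and Y-positive fibroblasts at 111 CPM. Endothelial cells lay at 67.6 CPM, macrophages at 49.3 CPM, NK cells at 45.6 CPM and T cells at 28.2 CPM. The intervals of these last 4 gates overlap, so their order is not resolved, and that of endothelial cells also reaches that of Y-positive fibroblasts, while the first 3 are apart from each other. Macrophages stood at 0.298-fold (0.251 to 0.351) of all Xist-positive cells, or 0.0985 per cell, and T cells at 0.170-fold (0.0683 to 0.350).

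Hist1h1c had another order. It lay at 126 CPM in the osteoclast gate, 97.4 CPM in Y-positive fibroblasts, 84.5 CPM in T cells, 79.8 CPM in macrophages, 65.2 CPM in NK cells and 45.5 CPM in all Xist-positive cells. Endothelial cells lay at 64.1 CPM (38.0 to 101). The intervals of the osteoclast gate and of Y-positive fibroblasts overlap, and that of T cells, from 21 UMIs, reaches both. Most of this order is therefore not resolved. The osteoclast gate stood 2.77-fold (2.37 to 3.22) above all Xist-positive cells, macrophages 1.76-fold (1.53 to 2.01) and T cells 1.86-fold (1.15 to 2.85). The T cell fold ran from 0.578 per cell to 3.73 with higher cycle limits. T cells, macrophages and NK cells did not differ beyond their intervals, and the NK cell fold over all Xist-positive cells, 1.43 (0.965 to 2.05), included 1. Hist3h2a lay at 57.5 CPM in the osteoclast gate and 19.1 CPM in all Xist-positive cells, a fold of 3.01 (2.38 to 3.77), and at 20.9 CPM in macrophages. Hist2h2aa1, whose counts are uncertain, stood 2.32-fold (1.36 to 3.75) higher in macrophages and 2.96-fold (1.49 to 5.33) higher in the osteoclast gate than in all Xist-positive cells, from 19 and 12 UMIs.

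Other members with low resting levels differed too, and those named here were chosen after their values were seen. Hist1h1e, whose counts are uncertain, lay at 39.1 CPM in non-cycling NK cells, from 18 UMIs. It lay at 5.86 CPM in all Xist-positive cells, an NK cell fold of 6.68 (3.90 to 10.7). It stood at 1.99-fold (1.35 to 2.84) in macrophages and 2.16-fold (1.30 to 3.40) in Y-positive fibroblasts, while the interval of T cells, 1.37-fold (0.166 to 5.01), includes 1. Hist4h4 stood 4.91-fold (2.74 to 8.38) above all Xist-positive cells in macrophages, from 18 UMIs, and Hist2h2be 8.61-fold (4.02 to 16.9) in the osteoclast gate, from 11 UMIs.

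**Figure D5:**
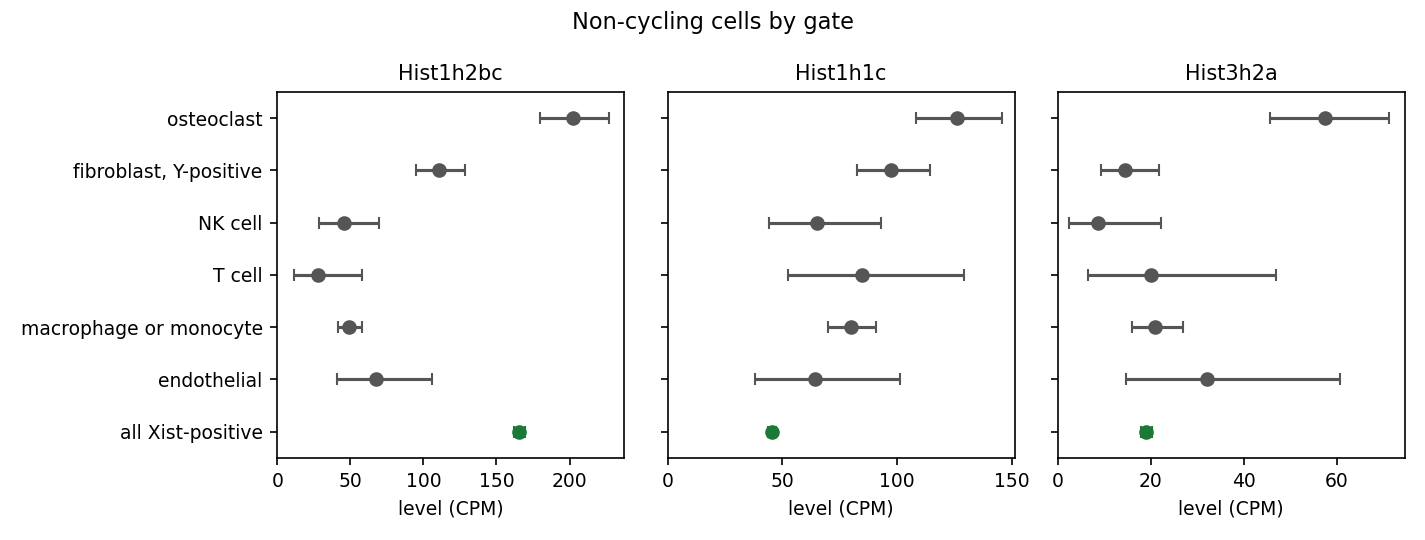
Level (CPM) of Hist1h2bc, Hist1h1c and Hist3h2a in non-cycling cells by gate, with pooled values and exact 95% Poisson intervals. The osteoclast gate is highest for all 3, and all Xist-positive cells are second for Hist1h2bc at 166 CPM and last for Hist1h1c at 45.5 CPM.

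The lists of genes that act on histone mRNAs and proteins had median folds below the histone members' 15.0, a difference that was not tested, though single genes lay well above their list's median. None of the 5 lists held a gene at 0.5-fold or less in S and G2/M over non-cycling Xist-positive cells (11.1% of all genes). Of 10 genes for 3' end processing, 2 reached 2-fold (6.33% of all genes), at a list median of 1.62. Slbp, which binds the stem-loop, stood at 158 CPM in S and G2/M cells and 75.2 CPM in non-cycling cells, a fold of 2.10 (2.00 to 2.20), and Lsm11, a subunit of the U7 particle that directs cleavage, at 2.36-fold (2.02 to 2.75). Cpsf2 stood at 1.43-fold and Lsm10 at 0.915-fold. Of 8 genes for activation, 4 reached 2-fold, at a median of 1.96. Ccne2 and Ccne1, the E cyclins, stood at 10.0-fold (8.32 to 12.2) and 7.74-fold (6.59 to 9.13). Cdc25a, a phosphatase that activates Cdk2, stood at 2.90-fold (2.59 to 3.24) and Cdk2 itself at 2.08-fold (1.90 to 2.27). Npat, the coactivator of histone genes that cyclin E and Cdk2 phosphorylate, did not reach 2-fold, Pou2f1 at 1.17-fold and Yy1 at 0.838-fold.

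Of 8 decay genes, 1 reached 2-fold, Eri1, an exonuclease that trims histone mRNA ends, at 2.26-fold (2.13 to 2.39), and the list median was 1.10. Lsm1, Smg1 and Tut7 stood at 1.23-fold, 0.783-fold and 0.725-fold. Of 13 genes for chaperones and deposition, 7 reached 2-fold, at a median of 2.18. Asf1b, an H3 and H4 chaperone, stood at 22.3-fold (18.8 to 26.8), and Chaf1b and Chaf1a, subunits of the CAF-1 complex that loads H3 and H4 behind the replication fork, at 13.2-fold (10.1 to 17.6) and 6.36-fold (5.49 to 7.39). Hat1, which acetylates new H4, stood at 5.44-fold (5.06 to 5.86) and Nasp at 3.43-fold (3.29 to 3.58). Nap1l1, Rbbp4 and Ssrp1, the list members with most UMIs, stood at 1.89-fold, 1.38-fold and 2.42-fold. Of 11 replication-independent variants, 6 reached 2-fold, at a median of 2.12. Cenpa, the H3 variant of centromeres, stood at 9.63-fold (9.03 to 10.3), H2afx at 4.55-fold (4.25 to 4.87) and H2afz at 3.54-fold (3.49 to 3.59), while H3f3a and H3f3b, which encode H3.3, stood at 0.917-fold (0.902 to 0.931) and 1.37-fold (1.36 to 1.38).

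Over the 23 groups of lineage and cycle with at least 50 cells, the genes outside the histone family whose CPM followed the summed histone level most closely were Zcchc17 (Spearman's rho 0.854), Hmgb3 (0.841) and Gstcd (0.833). The groups share libraries and gates overlap, so these values describe this matrix.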

How the data were processed

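The authors deposited 1 matrix of raw UMI counts for all 6 tumors together, with 12 multiplexing tags. Cell Ranger 7.1 is named per the submitters' processing notes, Seurat 4.1.0 and mm10 in the series' text and notes, and Cell Ranger 7.0.0 in the matrix, per the file headers; handling of reads that fit several genes is not given in the sources used here. Barcode sets are cells that share a suffix. Cells were kept if they had 500 or more genes and less than 15% of counts from mitochondrial genes (median 7654 UMIs per cell over the matrix). Cycle limits, found by Otsu's method, were 11.9 S list and 21.0 G2/M list UMIs per 10000; 1569 cells lay within 20% of a limit and 1745 cells under 2000 UMIs were not placed. Another 4434 cells met a host list but had over 1 Xist UMI, and 2360 cells met no gate. No doublet caller was run; ties between lists were left unassigned, and leaving out cells above the 98th percentile of UMIs was an alternative.

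Counts were summed per gate and cycle group. Folds are ratios of CPM; where the lower group had under 3 counts, 3 were used, and this was worded for both groups in the plan. Poisson intervals are given for levels and conditional binomial ones for folds. All genes with at least 50 UMIs in the matrix (14513) were tested alike. Single genes are named by a rule: the 3 members with most UMIs per class, the members with the largest and smallest S only and host folds, and, of the other lists, the 3 genes with most UMIs; those named beyond it were chosen after their values were seen. The members and lists were chosen with earlier results of these data known. All Xist-positive cells, the S and G2/M comparison, and the Y-positive and Y-negative fibroblast gates were chosen after seeing the data. Gene positions are from GENCODE M21 on mm10. Steps were tested on simulated data. Python 3.11, numpy 2.4.6, pandas 2.3.3, scipy 1.17.1 and matplotlib 3.10.9 were used.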

Additional observations from a re-analysis of the deposited data

How the results depend on the processing

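No paired analysis was possible because no cell is tied to a tumor. Over 242 alternative values of 15 results under 17 settings, 194 stayed within the limits of change, 47 moved and 1 reversed; the causes were not tested. The sum in S only over non-cycling Xist-positive non-immune cells (1.11) was 1.51 with 2 markers per gate, 2.10 with cycle limits 1.5 times higher, 0.970 with thinned cycle lists, 1.38 per cell, 0.971 in all Xist-positive cells and 0.872 to 1.19 with 1 barcode set left out. Its 24 members at 2-fold became 36 with higher limits, 10 with 2 markers and 3 with thinned lists, and 16 to 24 with 1 set left out. In macrophages the S only fold (1.24) was 2.46 with higher limits, 0.991 thinned, 1.62 per cell and 0.977 to 1.31 with 1 set left out; in T cells (2.55) it was 1.26 thinned and 2.11 to 3.04. Non-cycling T cells over Xist-positive non-immune cells (0.693) gave 1.24 with higher limits, 0.281 per cell and 0.560 to 0.809. S and G2/M over non-cycling in all Xist-positive cells (4.77) gave 5.05 with 2 markers, 4.64 with 4 markers, 5.99 with higher limits, 3.63 thinned, 8.30 per cell and 4.53 to 5.05 with 1 set left out; its 45 members stayed at 45 to 47. S and G2/M T cells over all Xist-positive cells (2.00) gave 1.79 with no condition on Xist, 1.67 with higher limits, 2.35 thinned and 1.81 to 2.13 with 1 set left out, and reversed to 0.718 per cell. Thinning set the S limit at about 1 UMI of 2000 and left 3476 non-cycling cells. Depth limits the host gates, where single members rest on few UMIs.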
